A study of Mus musculus with 24 samples.

Results

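The ERBB receptors and their ligands were followed across 8 sorted mammary cell populations: the receptors Egfr, Erbb2, Erbb3 and Erbb4 and the ligands Nrg1, Btc, Ereg, Hbegf, Tgfa and Egf. A gene was read from the probe set that lists its symbol and no other. Each of the 10 genes has 1 such probe set, and they stand among 19937 genes read this way. A further probe set shared by Erbb2 and another gene was not used.

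The samples are sorted primary cells from mice of a mixed FVB/C57BL6 background, each profiled on an Affymetrix mouse gene array. All mice carry Lgr5-creERT2, a tamoxifen-inducible Cre recombinase under control of the Wnt-pathway receptor gene Lgr5, and all received tamoxifen 4 weeks before collection. Mutant mice also carry a transgene for PIK3CA H1047R, an activated catalytic subunit of phosphoinositide 3-kinase, and control mice do not. Each array holds amplified RNA from 250 cells of a pool of 2 to 3 estrus-synchronised mice, sorted on 3 occasions, so each group has 3 arrays and the arrays total 24.

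Cells negative for the leukocyte antigen CD45 were split by CD24 and Sca1. The basal gate is CD24 low and Sca1 negative, and the luminal gates are CD24 high and either Sca1 negative or Sca1 positive. GFP marks expression of Lgr5 and, in mutant mice, of the transgene, so in control mice it can mark only Lgr5. Basal cells of both genotypes were taken as GFP-negative and GFP-positive fractions. Because GFP marks more in mutant than in control mice, the same basal gate need not hold the same cells in each genotype. A basal mutant effect is therefore a difference between gated populations, and the part of the gate in it was not tested. Luminal cells were GFP-positive in mutant and GFP-negative in control mice, and there the genotype and the GFP gate cannot be told apart. The labels give no age, and the transgene is switched on only in cells in which the Lgr5 promoter was active and in their progeny.

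ERBB receptors are tyrosine kinases that act in pairs. Egfr binds Egf, Tgfa, Hbegf, Btc, Ereg and related ligands, Erbb3 and Erbb4 bind neuregulins such as Nrg1, and Erbb2 has no known ligand and serves as the favoured partner of the others. Erbb3 has little kinase activity of its own and, once phosphorylated, binds the regulatory subunits of phosphoinositide 3-kinase. In the mammary gland these receptors are known for their parts in ductal growth, alveolar development and lactation.

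Values are the deposited log2 levels, and a difference of 1 on this scale is a doubling of signal. Signal depends on the probes, so levels are compared between groups for 1 gene and not between genes. A level of 4.317, under which lie the means of 95% of 1027 olfactory receptor genes, stands as the background level. Differences were tested with limma over all 19937 genes, with 3 arrays per group, and a gene was called at an adjusted p under 0.05. Means are given ± SD (n = 3) and differences ± standard error of the fit.

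The targeted gene was read first. Pik3ca had group means of 6.98 to 7.69 in the control groups and 7.43 to 8.07 in the mutant groups, and was called higher in mutant basal GFP-positive cells (1.09 ± 0.21, adjusted p = 0.00435), though whether its probe set reads the transgene is not given in the sources used here. Lgr5 was lower in mutant than in control basal GFP-positive cells (-3.16 ± 0.39, adjusted p = 7.95e-05). Its mean followed the GFP gate in control basal cells (9.47 in GFP-positive and 8.07 in GFP-negative cells, adjusted p = 0.0898) and ran against it in mutant basal cells (6.30 and 7.34, -1.04 ± 0.39, adjusted p = 0.249), neither difference being called. The limma test of the difference between these 2 differences was called for Lgr5 (-2.43 ± 0.56, adjusted p = 0.0424). It was also called for Pik3ca (1.35 ± 0.30, adjusted p = 0.0361), beside 1.07% of all genes. All 9 basal markers were lower and all 10 luminal markers higher in luminal than in basal cells of both genotypes. Ptprc, which encodes CD45, was between 3.97 and 4.47 on all arrays. The control basal GFP-positive group differed in signal from the rest: its 3 arrays had the narrowest spread of values (mean SD 1.714 against 1.77 to 1.864 in the other groups) and the highest level of dim genes. Of the mutant luminal Sca1-positive arrays, replicate 1 had a basal marker mean of 6.60 against 5.14 and 5.39 on the other arrays of its group.

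**Figure D1:**
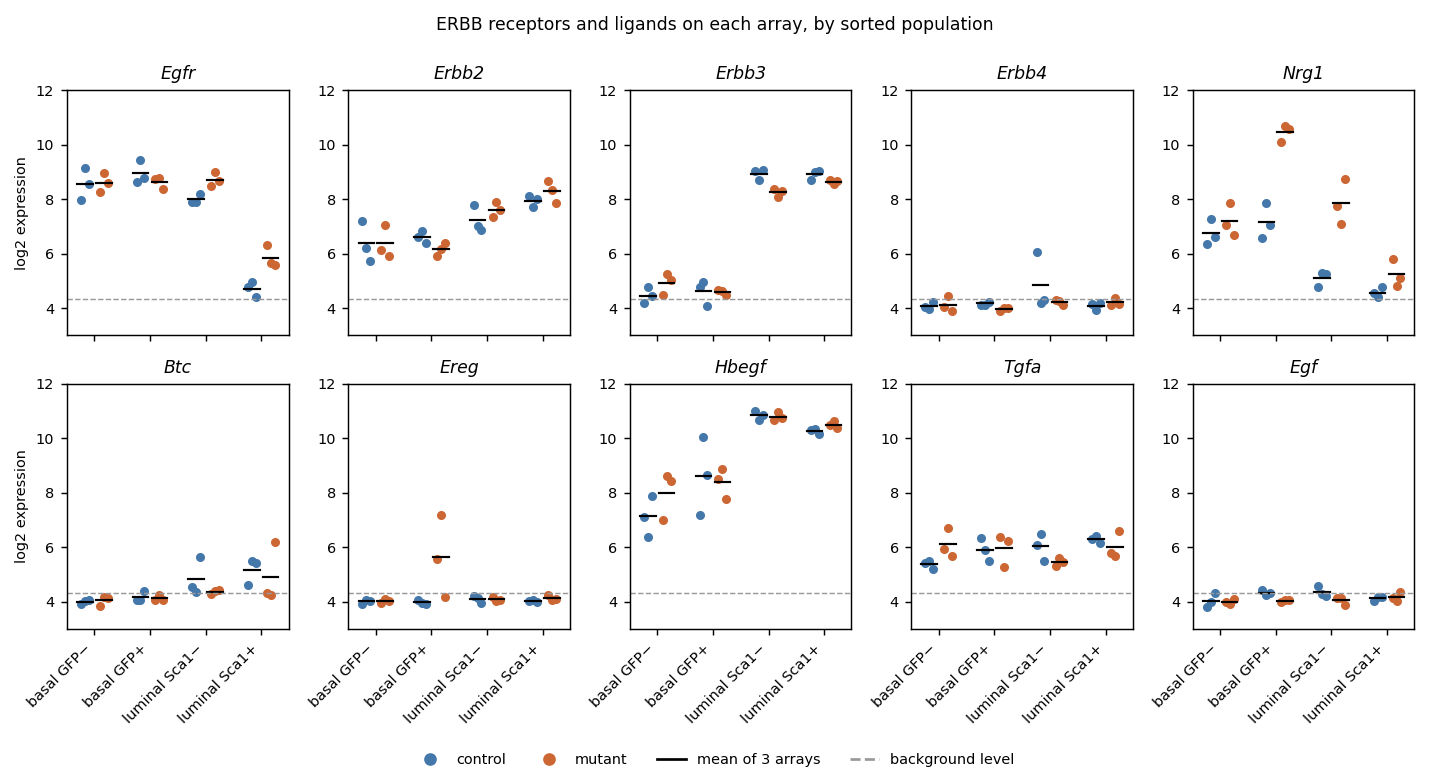
Log2 level of each gene (vertical axis) on each of the 24 arrays, by sorted population (horizontal axis), with control arrays in blue, mutant arrays in orange, black bars at the mean of 3 arrays and a dashed line at the background level of 4.317. Erbb3 and Hbegf are high in the luminal groups, Egfr is low only in the luminal Sca1-positive groups, and Nrg1 is highest in mutant basal GFP-positive cells.

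Between the lineages, 6 of the 10 genes were called in control mice, where 19.3% of all genes were called, and 5 in mutant mice, where 15.4% were. The mean of both luminal gates had more Erbb3, Erbb2 and Hbegf and less Nrg1 and Egfr than the basal mean in both genotypes, and more Btc in control mice. For the Sca1-negative gate alone, neither Nrg1 nor Egfr was called in mutant mice, and Egfr, Erbb2 and Btc were not called in control mice. The mutant effect was called for Nrg1 and Ereg, both ligands and both higher, in basal GFP-positive cells, beside 12.6% of all genes. In luminal Sca1-negative cells it was called for Nrg1, beside 0.727% of all genes. No member was called in basal GFP-negative cells (0 of 10, against 0.0602% of all genes) or in luminal Sca1-positive cells (0 of 10, against 0.777%). By limma, 2 and 1 of the 10 there had an unadjusted p under 0.05, as did 1258 and 1542 of all 19937 genes. Arrays are of bulk cells, in which fewer cells of a type and less RNA per cell cannot be told apart.

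Egfr, the receptor of Egf and Tgfa, separated the luminal gates more than it separated the lineages. On the control basal arrays it stood at 7.98, 9.13 and 8.55 in GFP-negative and at 8.63, 9.43 and 8.78 in GFP-positive cells. Control luminal Sca1-negative cells had 7.90, 7.91 and 8.17, and control Sca1-positive cells had 4.78, 4.94 and 4.39. All 3 Sca1-positive arrays lay more than 2 log2 units under every other control array and close to the background level.

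In mutant mice Egfr stood at 8.25, 8.95 and 8.59 in basal GFP-negative and at 8.73, 8.79 and 8.37 in basal GFP-positive cells. Mutant luminal Sca1-negative cells had 8.48, 8.98 and 8.67, overlapping the mutant basal arrays, with replicate 2 above all of those. Mutant Sca1-positive cells had 6.30, 5.65 and 5.58, again the lowest of their genotype, with replicate 1, the array with the higher basal marker mean, on top. Sca1-positive cells had 9.78-fold less Egfr than Sca1-negative cells in control mice (-3.29 ± 0.28, adjusted p = 1.18e-06) and 7.31-fold less in mutant mice (-2.87 ± 0.28, adjusted p = 5.56e-06). The Sca1 comparison called 1 of the 10 genes in control mice, beside 3.69% of all genes, and 2 of 10 in mutant mice, beside 3.66%. Without replicate 1 the mutant difference was -3.10.

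The Egfr difference between luminal and basal cells rested on the Sca1-positive gate. With both luminal gates it was -2.40 ± 0.20 in control (adjusted p = 4.71e-08) and -1.34 ± 0.20 in mutant mice (adjusted p = 7.42e-05). With luminal Sca1-positive cells alone it was -4.05 and -2.77. With Sca1-negative cells alone it was -0.76 in control mice (adjusted p = 0.0512) and 0.10 in mutant mice (adjusted p = 0.906), a change of sign. These splits of the luminal mean were chosen after the data were seen.

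Egfr on all 3 mutant luminal Sca1-positive arrays exceeded that on all 3 control arrays, by 1.14 ± 0.28 (95% interval 0.55 to 1.73), without passing the test (adjusted p = 0.0801). With arrays weighted by their fit it passed (adjusted p = 0.0242), as it did with the replicate number as a block in the fit (adjusted p = 0.0434). Without mutant replicate 1 the difference was 0.91 (adjusted p = 0.331). In Sca1-negative cells mutant and control arrays did not overlap either (0.72 ± 0.28, adjusted p = 0.334). The mutant effect was larger in luminal than in basal cells by 1.06 ± 0.28, which did not pass (adjusted p = 0.0924) except without control basal GFP-negative replicate 1 (1.21, adjusted p = 0.0388). In that test of the difference of effects 0 of the 10 genes were called by limma, beside 0.782% of all genes. An unadjusted p under 0.05 was found there by limma for 3 of the 10 and for 2428 of all 19937 genes.

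Promoters of Egfr and Erbb2 are shown because these receptors had opposite lineage differences. The windows are the 250 bases before the start of each gene on the plus strand, from RefSeq on GRCm38.p6, at chr11:16751953-16752202 for Egfr and chr11:98412234-98412483 for Erbb2. Capitals mark matches to 1 of 5 motifs searched on both strands. The GC box, known to bind Sp proteins, was searched as GGGCGG, and the TATA box of the basal machinery as TATAAA. The site of AP-2 proteins was searched as GCCNNNGGC. For the AP-1 proteins Fos and Jun the letters were TGANTCA, and for the E-box of helix-loop-helix proteins they were CANNTG. Each window holds 1 match in all.
Egfr: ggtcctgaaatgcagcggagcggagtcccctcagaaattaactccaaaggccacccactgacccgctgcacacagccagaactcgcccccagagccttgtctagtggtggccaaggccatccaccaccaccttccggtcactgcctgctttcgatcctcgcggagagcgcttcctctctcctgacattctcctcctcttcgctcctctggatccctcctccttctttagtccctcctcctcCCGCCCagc
Erbb2: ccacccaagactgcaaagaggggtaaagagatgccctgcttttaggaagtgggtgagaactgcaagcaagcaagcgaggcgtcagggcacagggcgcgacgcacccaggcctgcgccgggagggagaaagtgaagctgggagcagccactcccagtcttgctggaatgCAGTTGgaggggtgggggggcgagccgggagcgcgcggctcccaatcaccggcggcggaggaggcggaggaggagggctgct
The Egfr window holds 1 GC box, on the minus strand 9 bases before the start, and 60.8% of its bases are G or C. The Erbb2 window holds 1 E-box 82 bases before the start and 66.0% G or C, where the median over all windows is 52.4%. Neither window holds a TATA box, an AP-2 site or an AP-1 site in these letters. Over 32851 windows of this length, 32.7% hold the GC box, 66.2% the E-box, 12.4% the TATA box, 13.7% the AP-2 site and 6.75% the AP-1 site. No motif match was set against expression.

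Erbb2, the receptor without a ligand, was higher in luminal cells and differed less than Erbb3. Its control basal levels were 7.19, 6.20 and 5.71 in GFP-negative and 6.62, 6.84 and 6.37 in GFP-positive cells. Control luminal levels were 7.79, 7.00 and 6.87 in Sca1-negative and 8.12, 7.71 and 8.01 in Sca1-positive cells. The lineages overlapped in control mice through basal GFP-negative replicate 1 and the lower luminal Sca1-negative arrays.

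In mutant mice Erbb2 stood at 6.14, 7.06 and 5.91 in basal GFP-negative and at 5.92, 6.16 and 6.38 in basal GFP-positive cells. Mutant luminal levels were 7.35, 7.88 and 7.61 in Sca1-negative and 8.67, 8.35 and 7.87 in Sca1-positive cells, all above the basal arrays. Luminal cells had 2.14-fold more Erbb2 in control (1.09 ± 0.24, adjusted p = 0.00343) and 3.23-fold more in mutant mice (1.69 ± 0.24, adjusted p = 6.05e-05). With the Sca1-negative gate alone the control difference was 0.73 (adjusted p = 0.144) and the mutant one 1.35 (adjusted p = 0.00492). Both genotypes had their highest Erbb2 mean in Sca1-positive cells, where Egfr was lowest, but the Sca1 difference of Erbb2 did not pass in either (0.72 ± 0.35, adjusted p = 0.338, and 0.69 ± 0.35, adjusted p = 0.464).

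Erbb3, the neuregulin receptor that couples to phosphoinositide 3-kinase, showed the sharpest lineage split of the 10 genes. Its basal levels lay between 4.09 and 5.24 on the 12 basal arrays of both genotypes, at or little above the background level. On the luminal arrays of control mice it stood at 9.04, 8.69 and 9.06 in Sca1-negative and at 8.70, 9.01 and 9.02 in Sca1-positive cells. Mutant luminal arrays gave 8.37, 8.09 and 8.30 in Sca1-negative and 8.70, 8.57 and 8.65 in Sca1-positive cells. Luminal and basal arrays did not overlap in either genotype.

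The luminal excess of Erbb3 was 20.8-fold in control mice (4.38 ± 0.15, adjusted p = 2.30e-13) and 12.9-fold in mutant mice (3.69 ± 0.15, adjusted p = 3.13e-12), and as large with either luminal or basal gate alone (3.5 to 4.46). Because the basal levels are near the background level, the size of these differences is not exact. All 3 mutant Sca1-negative arrays lay under all 3 control arrays, by -0.68 ± 0.21, but the difference did not pass (95% interval -1.12 to -0.23, adjusted p = 0.19).

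Erbb4, the other neuregulin receptor, was at or near the background level nearly throughout. It exceeded that level on 3 of 24 arrays, to 4.44 and 4.38 on a mutant basal GFP-negative and a mutant luminal Sca1-positive array and to 6.05 on control luminal Sca1-negative replicate 1. The other 2 arrays of that last group stood at 4.19 and 4.31. Erbb4 was called by limma in 0 of the 13 comparisons and had an unadjusted p under 0.05 in 1.

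**Figure D2:**
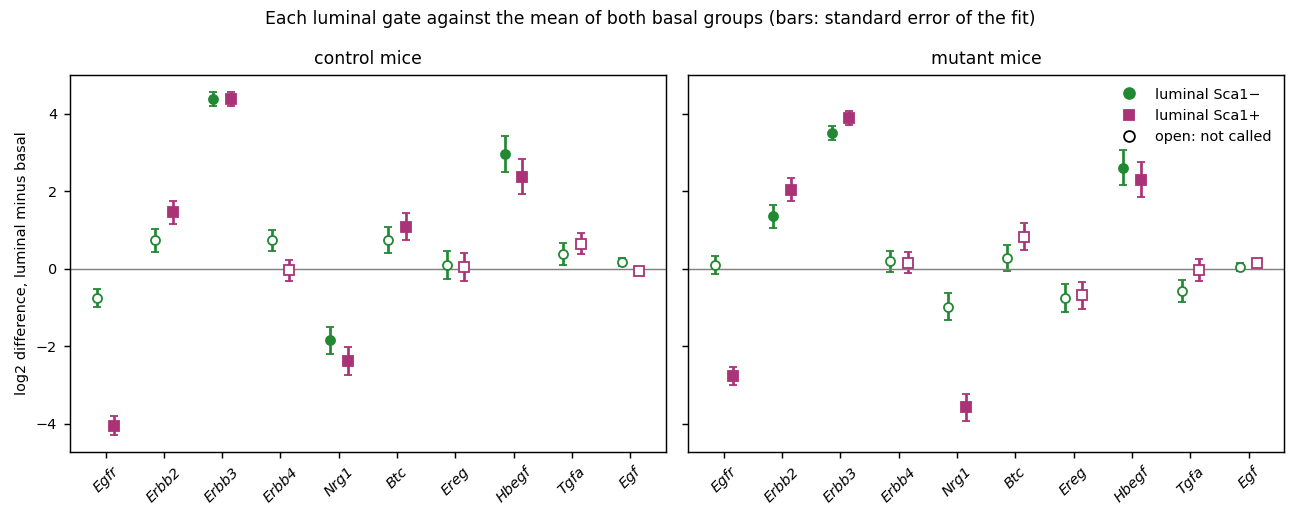
Log2 difference between each luminal gate and the mean of both basal groups (vertical axis) for the 10 genes (horizontal axis), in control and mutant mice, with standard errors. Filled symbols passed an adjusted p of 0.05. Egfr lies at -4.05 and -2.77 with the Sca1-positive gate and at -0.76 and 0.10 with the Sca1-negative gate, while Erbb3 lies between 3.5 and 4.39 with both.

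Nrg1, the neuregulin that binds Erbb3 and Erbb4, had the widest span of group means (5.88) and was the only member with a mutant effect called in 2 populations. On the control basal arrays it stood at 6.35, 7.27 and 6.61 in GFP-negative and at 6.57, 7.84 and 7.06 in GFP-positive cells. On mutant basal GFP-negative arrays it stood at 7.05, 7.86 and 6.69, within the span of the control basal arrays apart from an excess of 0.02 in replicate 2. Mutant basal GFP-positive arrays had 10.11, 10.69 and 10.56, all above every other array of the series.

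In control luminal cells Nrg1 was 4.77, 5.27 and 5.26 in the Sca1-negative gate and 4.56, 4.41 and 4.76 in the Sca1-positive gate, little above the background level. Mutant luminal Sca1-negative arrays had 7.76, 7.08 and 8.72, and mutant Sca1-positive arrays 5.81, 4.82 and 5.10. Mutant Sca1-negative cells thus reached the levels of basal GFP-negative cells, whereas the Sca1-positive arrays lay below all basal arrays.

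The mutant effect on Nrg1 was 9.82-fold in basal GFP-positive cells (3.30 ± 0.40, adjusted p = 6.99e-05) and 6.73-fold in luminal Sca1-negative cells (2.75 ± 0.40, adjusted p = 0.00154). It was 0.46 ± 0.40 in basal GFP-negative cells (95% interval -0.39 to 1.31, adjusted p = 0.913) and 0.67 ± 0.40 in luminal Sca1-positive cells (95% interval -0.18 to 1.52, adjusted p = 0.801). Set against control basal GFP-negative cells, which leaves out the control arrays that differed in signal, the basal GFP-positive effect was 3.71 (adjusted p = 1.87e-05). When just the arrays of that comparison were fitted, the luminal call was lost (adjusted p = 0.118).

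Of the 3 tested differences between effects, that between the basal fractions was called for Nrg1, at 2.84 ± 0.57 (adjusted p = 0.0189), 1 of the 10 genes beside 1.07% of all genes. This call held under 14 of 18 alternatives. Among those that lost it was the fit of just the 12 basal arrays (adjusted p = 0.106). Others were the fits without control basal GFP-negative replicate 2 (2.57, adjusted p = 0.0517) and without mutant basal GFP-negative replicate 3 (2.58, adjusted p = 0.0535). As the GFP gate differs in meaning between the genotypes, these basal fractions are not matched populations. Between the luminal gates the effects differed by -2.08 ± 0.57, Sca1-positive minus Sca1-negative, with an unadjusted p of 0.00187 and an adjusted p of 0.257, so a difference between the luminal effects was not shown. By limma 0 of the 10 genes were called there, beside 0.161% of all genes. An unadjusted p under 0.05 was found by limma for 1 of the 10 and for 1422 of all 19937 genes. Between luminal and basal cells the difference of effects was -0.17 ± 0.40 (adjusted p = 0.895).

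The GFP fractions of mutant basal cells differed by 3.25 ± 0.40 in Nrg1 (adjusted p = 8.49e-05), and 2 of the 10 genes were called there, beside 2.51% of all genes. That comparison shares its GFP-positive arrays with the mutant effect. In control basal cells 0 of 10 were called by limma, beside 1.25% of all genes. An unadjusted p under 0.05 was found by limma for 2 of the 10 and for 3324 of all 19937 genes. Nrg1 differed between the control basal fractions by 0.41 ± 0.40 (adjusted p = 0.649). Between the mutant luminal gates Nrg1 was lower in Sca1-positive cells (-2.61 ± 0.40, adjusted p = 0.00079, and -2.89 without Sca1-positive replicate 1), a call lost when just those 6 arrays were fitted (adjusted p = 0.0685).

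Across lineages Nrg1 was lower in luminal cells, by 4.33-fold in control mice (-2.11 ± 0.29, adjusted p = 2.37e-05), with no overlap, and by 4.86-fold in mutant mice (-2.28 ± 0.29, adjusted p = 1.16e-05), where the arrays overlapped. The mutant difference rested on the GFP-positive basal cells and the Sca1-positive luminal cells. It was -0.65 against basal GFP-negative cells alone (adjusted p = 0.28) and -0.98 with luminal Sca1-negative cells alone (adjusted p = 0.0912).

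**Figure D3:**
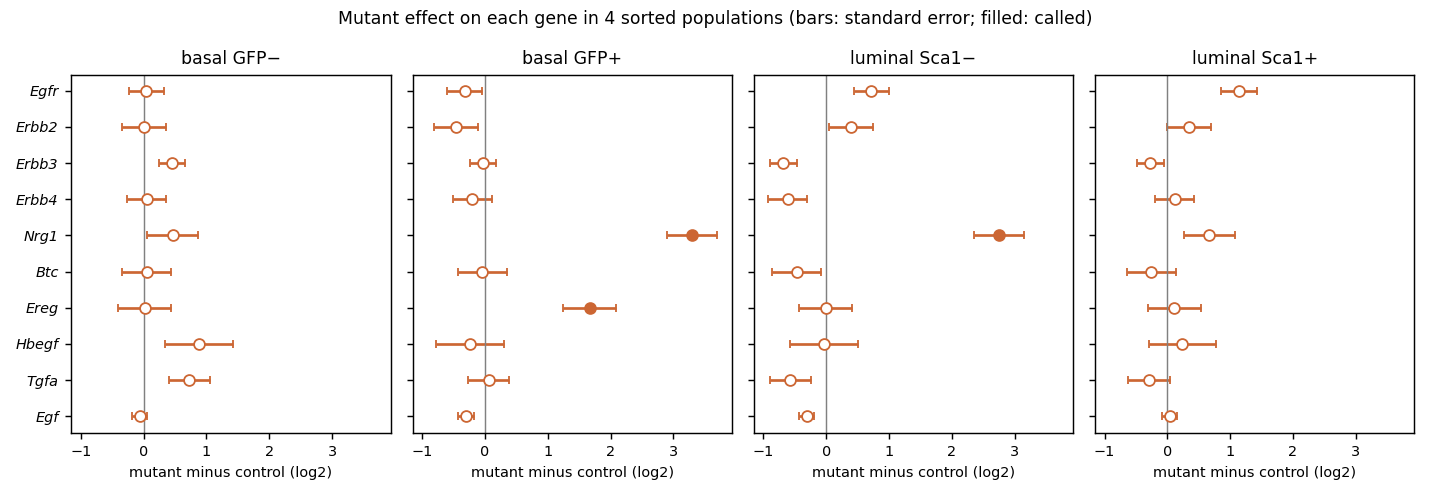
Mutant minus control difference on the log2 scale (horizontal axis) for the 10 genes (vertical axis) in 4 sorted populations, with standard errors and with filled points where the adjusted p was under 0.05. Nrg1 is filled at 3.30 in basal GFP-positive and 2.75 in luminal Sca1-negative cells, Ereg at 1.67 in basal GFP-positive cells, and the other points are open.

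Markers of other cell types moved with the Nrg1 result in luminal Sca1-negative cells. The mean of 9 basal markers was 6.29 to 6.90 on the mutant arrays against 5.20 to 5.41 on the control arrays. By limma 2 of the 9 were called higher, Krt5 (3.29 ± 0.43) and Krt14 (2.46 ± 0.42), beside 0.727% of all genes called. An unadjusted p under 0.05 was found for 5 of the 9 basal markers, and for 2213 of all 19937 genes. The median difference of the basal markers was 0.80, against -0.04 over all genes. The part of the basal markers in the Nrg1 difference was not tested. Mutant luminal Sca1-positive replicate 1 had a basal marker mean of 6.60 and an Nrg1 level of 5.81. The 3 mutant Sca1-negative arrays, at 6.29, 6.39 and 6.90, had 7.76, 7.08 and 8.72. Mutant basal cells themselves had Nrg1 means of 7.20 (GFP-negative) and 10.45 (GFP-positive). A like marker mean need therefore not bring a like Nrg1 level, and nothing is concluded from that 1 array. Of 12 leukocyte markers 1, Cd68, was called higher in the mutant Sca1-negative arrays, and Ptprc stood at 3.97 to 4.14 there. Of 7 fibroblast markers 1, Dcn, was called lower, with list means of 4.56 to 4.89 on the mutant and 5.21 to 5.26 on the control arrays.

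In basal GFP-positive cells 12.6% of all genes were called between the genotypes, and 6337 of all 19937 had an unadjusted p under 0.05 by limma. The marker counts that follow are to be read beside these shares. Of the 9 basal markers 0 were called by limma, 4 had an unadjusted p under 0.05, and their mean was 10.35 to 10.56 on the mutant and 10.70 to 10.75 on the control arrays. Of 10 luminal markers Elf5 and Cd14 were higher in mutant cells, with list means of 6.71 to 7.41 against 6.33 to 6.97. Of 7 fibroblast markers Dcn and Col1a2 were higher (list means 5.50 to 5.69 against 5.0 to 5.10), while Pdgfra and Lum were not above the background level in either group. Of 12 leukocyte markers Csf1r was called lower, 9 had an unadjusted p under 0.05, and the list means were 4.19 to 4.27 against 4.38 to 4.51, near the background level. Of 6 adipocyte markers Cidec was called lower (list means 4.32 to 4.44 against 4.39 to 4.57). The part of these markers in the Nrg1 and Ereg differences was not tested.

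**Figure D4:**
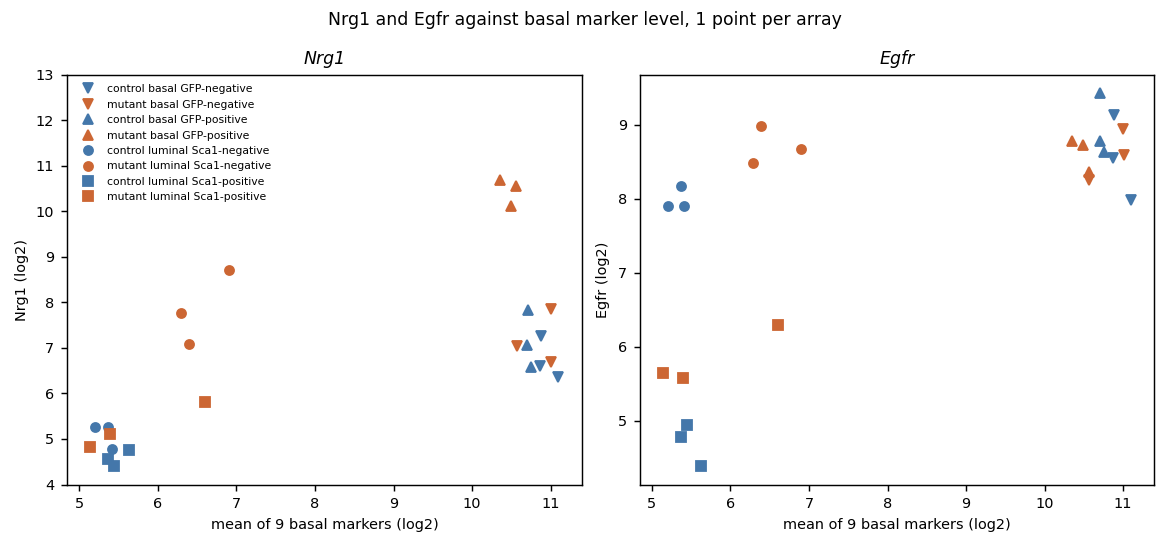
Nrg1 (left) and Egfr (right) levels on the log2 scale against the mean of 9 basal markers, 1 point per array, with control arrays in blue, mutant arrays in orange and a symbol for each sorted population. Mutant basal GFP-positive arrays have Nrg1 levels of 10.11 to 10.69 at basal marker means of 10.35 to 10.56, and mutant luminal Sca1-negative arrays have Nrg1 levels of 7.08 to 8.72 at marker means of 6.29 to 6.90.

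Hbegf, a ligand of Egfr and Erbb4 made as a membrane-bound precursor, was higher in luminal cells. Its control basal levels were 7.12, 6.39 and 7.88 in GFP-negative and 7.17, 10.05 and 8.67 in GFP-positive cells. Control luminal levels were 10.99, 10.67 and 10.86 in Sca1-negative and 10.30, 10.33 and 10.15 in Sca1-positive cells. The basal arrays were scattered and the luminal ones tight, and control basal GFP-positive replicate 2 came within 0.1 of the lowest luminal array.

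Mutant basal levels of Hbegf were 6.99, 8.60 and 8.44 in GFP-negative and 8.50, 8.87 and 7.79 in GFP-positive cells. Mutant luminal levels were 10.69, 10.98 and 10.75 in Sca1-negative and 10.49, 10.62 and 10.38 in Sca1-positive cells. Basal and luminal arrays did not overlap in either genotype. Luminal cells had 6.37-fold more in control (2.67 ± 0.38, adjusted p = 4.12e-05) and 5.47-fold more in mutant mice (2.45 ± 0.38, adjusted p = 0.000121). Between the control basal fractions Hbegf differed by 1.5 ± 0.54 (adjusted p = 0.173), which passed without GFP-positive replicate 1 (2.23, adjusted p = 0.0338).

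Btc, betacellulin, a ligand of Egfr and Erbb4, was above the background level on 10 of 24 arrays, 9 of them luminal. Control luminal arrays had 4.53, 4.35 and 5.63 in Sca1-negative and 4.63, 5.48 and 5.43 in Sca1-positive cells, against 3.92 to 4.38 on the 6 control basal arrays. Mutant luminal arrays had 4.27, 4.40 and 4.42 in Sca1-negative and 4.31, 4.23 and 6.21 in Sca1-positive cells, so that only Sca1-positive replicate 3 stood clear. The lineage difference was called in control mice (0.92 ± 0.28, adjusted p = 0.0262) and not in mutant mice (0.55 ± 0.28, adjusted p = 0.232). The control call was lost under 8 of 22 alternatives, with adjusted p up to 0.202. Among these were the fits without control basal GFP-positive replicate 1 (adjusted p = 0.0505), luminal Sca1-negative replicate 3 (0.0781) and luminal Sca1-positive replicates 2 and 3 (0.0643 and 0.0616). The lineage difference of Btc differed between the genotypes by -0.37 ± 0.39 (adjusted p = 0.732).

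Ereg, epiregulin, a ligand of Egfr and Erbb4, was above the background level on 2 of 24 arrays, both mutant basal GFP-positive. That group had 5.56, 7.20 and 4.19, while the other 21 arrays lay between 3.90 and 4.26. Its replicate 3 was within that span, although above all 3 control basal GFP-positive arrays. The mutant effect was 1.67 ± 0.42 (adjusted p = 0.0183), and the GFP fractions of mutant basal cells differed by 1.63 ± 0.42 (adjusted p = 0.0476).

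Both Ereg calls rested on few arrays. Without mutant basal GFP-positive replicate 2 the mutant effect was 0.90, still called, and the difference between the mutant fractions was 0.85, no longer called. Neither passed when just the arrays compared were fitted (adjusted p = 0.244 and 0.463). The mutant effect was lost without control basal GFP-positive replicate 3 (1.64, adjusted p = 0.0575) and with weighted arrays (adjusted p = 0.0502). The difference between the mutant fractions was lost without any 1 of the 3 GFP-negative arrays (adjusted p = 0.109 to 0.122) and without GFP-positive replicate 1 or 2 (0.121 and 0.0914). Its mutant effect differed between the basal fractions by 1.65 ± 0.59, which was not called (adjusted p = 0.216), and without mutant basal GFP-positive replicate 3 it was 2.39 (adjusted p = 0.0026). Luminal minus basal cells of mutant mice differed by -0.72 ± 0.30 in Ereg (adjusted p = 0.124), and by -1.09 without that array (adjusted p = 0.000408).

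Tgfa, transforming growth factor alpha, a ligand of Egfr, was above the background level on all 24 arrays, between 5.21 and 6.71. Its group means ran from 5.38 ± 0.16 in control basal GFP-negative to 6.30 ± 0.15 in control luminal Sca1-positive cells, and it was called by limma in 0 of 13 comparisons, with an unadjusted p under 0.05 in 3. All 3 mutant basal GFP-negative arrays (5.93, 6.71 and 5.69) lay above the control ones (5.43, 5.51 and 5.21), by 0.73 ± 0.33 (adjusted p = 0.778). Egf, the founding ligand of Egfr, exceeded the background level on 4 arrays, at most at 4.59 in control luminal Sca1-negative replicate 1. It too was called by limma in 0 of 13 comparisons, with an unadjusted p under 0.05 in 3.

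Ordered by group mean, most neighbouring groups did not differ by more than the larger of their SDs. Of the 7 steps between neighbours in that order, 3 exceeded both SDs for Erbb3, Nrg1 and Hbegf, 2 for Egfr and Erbb2, 1 for Btc, Ereg, Tgfa and Egf, and 0 for Erbb4. By lineage, Erbb2 and Erbb3 were higher in luminal cells, as was Hbegf, while the mean of the luminal gates was lower in Nrg1 and Egfr. In the order of means, the exceptions by gate were in mutant luminal Sca1-negative cells. Their Nrg1 mean (7.85) lay above that of mutant basal GFP-negative cells (7.20), and their Egfr mean (8.71) above that of both mutant basal groups. In control mice the Sca1-negative gate alone kept the direction for Egfr and Erbb2, but neither was called by limma (adjusted p = 0.0512 and 0.144).

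Over the 24 arrays Hbegf and Erbb3 had a Pearson r of 0.88, Erbb3 and Erbb2 0.82, Nrg1 and Egfr 0.67, Nrg1 and Erbb3 -0.64 and Erbb2 and Egfr -0.68. These are descriptions: the arrays fall into lineages and share groups. Among all other genes the most similar profiles over the 24 arrays were, for Egfr, Golim4 (r = 0.94), Itgb8 and Nr4a2 (both 0.93). For Erbb3 they were Mal2 and Rab11fip1 (both 0.99) and Pkp2 (0.98), and for Erbb2 Cystm1 (0.90), Tmem30b and Sipa1l3 (both 0.88). For Nrg1 they were Chst11 (0.93), Palmd (0.91) and Car12 (0.90), and for Hbegf Plaur (0.95), Rela (0.94) and Basp1 (0.93). Ereg was nearest to Il19 (0.96), Fbln5 (0.91) and Krt71 (0.90), and Btc to Sgsm3 and Stard13 (both 0.84) and Gtpbp1 (0.80).

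Ligands of this family are cut from membrane-bound precursors by ADAM proteases. The rhomboid-like proteins Rhbdf1 and Rhbdf2 are known for the trafficking of one of these, Adam17. Of 9 measured releasing enzymes and helpers, 4 were higher and 2 lower in control luminal cells, beside 19.3% of all genes called, with a list median of 0.62 against -0.04 over all genes. In mutant mice 3 were higher and 0 lower, beside 15.4% (median 0.28 against 0.02). Rhbdf2 was higher in luminal cells of both genotypes (1.62 ± 0.15 in each), and Adam10, the protease for Btc and Egf, by 1.52 ± 0.19 in control and 0.91 ± 0.19 in mutant mice. Adam10, like Egfr, differed between the luminal gates, but in the opposite direction: it was higher in Sca1-positive cells by 1.79 ± 0.28 in control and 1.81 ± 0.28 in mutant mice (adjusted p = 0.000755 and 0.000713). The control call was lost when just those 6 arrays were fitted (adjusted p = 0.0575). Rhbdf2 was also higher in Sca1-positive cells, by 1.52 ± 0.21 and 0.84 ± 0.21. Neither Rhbdf2 call held with just the arrays compared (adjusted p = 0.0513 and 0.122), and the mutant one was also lost without Sca1-negative replicate 1 or 2 or Sca1-positive replicate 2 or 3 (0.0679 to 0.166). Between these gates 2 of the 9 were higher in control and 3 in mutant mice, with 0 lower, beside 3.69% and 3.66% of all genes called. With the Sca1-negative gate alone the lineage difference of Adam10 was 0.63 in control and 0.01 in mutant mice, neither called (adjusted p = 0.113 and 0.992).

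In mutant basal GFP-positive cells 2 of the 9 were higher than in control, Furin (0.87 ± 0.23), a proprotein convertase that matures ADAM proteases, and Adam9 (0.96 ± 0.25), and 0 were lower, beside 12.6% of all genes called (median 0.48 against -0.10). The control arrays here had the narrowest spread of values (mean SD 1.714 against 1.864 on the mutant arrays). The part of that spread in the list median was not tested. Against control basal GFP-negative cells the Adam9 difference was 0.16 (adjusted p = 0.797), and with quantile normalization Furin and Adam9 did not pass (adjusted p = 0.155 and 0.0986), nor did they when just these 6 arrays were fitted (0.169 and 0.0895). Furin was also lost without control replicate 1 or 3 or mutant replicate 1 or 3 (0.0505 to 0.103), and Adam9 without control replicate 3 or mutant replicate 1 or 2 (0.0672 to 0.095). In the mutant effects of the other 3 populations 0 of the 9 were called by limma, with 0, 1 and 1 at an unadjusted p under 0.05.

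Adaptors carry the signal from phosphorylated receptors, and among 17 measured 5 were higher and 5 lower in control luminal cells, beside 19.3% of all genes called (median -0.04, as over all genes). In mutant mice 4 were higher and 4 lower, beside 15.4% (0.04 against 0.02). Grb7, an adaptor that binds Erbb2 and Erbb3, was higher in luminal cells of both genotypes (1.67 ± 0.27 and 1.94 ± 0.27), and Pik3r1, the main regulatory subunit of phosphoinositide 3-kinase, was lower (-1.79 ± 0.17 and -1.60 ± 0.17). Gab1, a docking protein for Egfr signalling, was lower in Sca1-positive than in Sca1-negative luminal cells (-0.97 ± 0.18 and -1.19 ± 0.18), as Egfr was.

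Between the genotypes in the basal GFP-positive gate, 3 of the 17 adaptors were called higher in mutant cells and 1 lower, beside 12.6% of all genes called (median 0.08 against -0.10). The part of the narrower spread of the control arrays in these counts was not tested. Pik3r3, another regulatory subunit of phosphoinositide 3-kinase, was higher by 2.39 ± 0.35 (adjusted p = 0.00043), Pik3cb, a catalytic subunit, by 1.60 ± 0.33 and Gab1 by 0.76 ± 0.18. Shc3, named after its values were seen, was the lower one (-0.28 ± 0.08). Gab1 did not pass with quantile normalization (0.48, adjusted p = 0.126), with the GFP-negative control fraction as reference (0.67, adjusted p = 0.0505), without control replicate 1 (0.61, adjusted p = 0.0601) or without mutant replicate 2 (0.65, adjusted p = 0.0615). With just these 6 arrays fitted Pik3cb (adjusted p = 0.111) and Gab1 (0.13) did not pass. The Pik3r3 effect exceeded that in basal GFP-negative cells by 2.63 ± 0.50 (adjusted p = 0.013).

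Inhibitors and turnover genes of the receptors include the ubiquitin ligases Cbl and Cblb, the Cbl partner Sh3kbp1, the phosphatase Ptprj and the LRIG proteins. Of 16 measured, 7 were called higher and 0 called lower by limma in the mutant cells of the basal GFP-positive gate. That share of the list is to be read beside the 12.6% of all genes called, with a median of 0.48 against -0.10. All genes include 7824 with a mean at or under the background level. The control arrays here had the narrowest spread of values and the highest level of dim genes. The part of that difference in signal in the list's count and median was not tested. Cblb was higher by 2.54 ± 0.48 (adjusted p = 0.00351), Ptprj by 1.43 ± 0.34 and Sh3kbp1 by 0.78 ± 0.18. The others, named after their values were seen, were Cbl, Socs4, Lrig1 and Hgs (0.66 to 1.29). Against control basal GFP-negative cells the Ptprj difference was 0.76 (adjusted p = 0.28). It was lost as well without control replicate 3 or mutant replicate 3 (adjusted p = 0.0717 and 0.0552), and the calls of Cblb (adjusted p = 0.0951), Ptprj (0.0923) and Sh3kbp1 (0.0625) were lost when just these 6 arrays were fitted.

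In mutant luminal Sca1-negative cells, beside 0.727% of all genes called, 1 of these 16 was higher, Sh3kbp1 (1.10 ± 0.18, adjusted p = 0.00335, and 0.0865 when just those 6 arrays were fitted), with a list median of 0.38 against -0.04. Between the lineages 4 were higher and 3 lower in control luminal cells, beside 19.3% of all genes (median 0.07 against -0.04). Ptprj was higher there (2.69 ± 0.24), and Lrig3 (-2.02 ± 0.20) and Nedd4, the ubiquitin ligase (-0.86 ± 0.08), were lower. In mutant mice 3 were higher and 3 lower, beside 15.4% (0.06 against 0.02), Ptprj (1.55 ± 0.24), Lrig3 (-1.99 ± 0.20) and Nedd4 (-0.92 ± 0.08) among them. Of the 4 measured ERBB ligands outside the 10 genes, 0 were called by limma in any of the 13 comparisons, with at most 2 of the 4 at an unadjusted p under 0.05 in a comparison, and Areg was not analysed here.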

How the data were processed

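The authors' deposited log2 expression values, 1 column per array, were used as given. The submitters' processing notes name affy; the normalization method is not given in the sources used here. The medians of the arrays ran from 4.39 to 4.55. A single symbol was listed for 21640 of 34760 probe sets; for a gene with several, the probe set with the highest mean over the 24 arrays was used. One limma 3.58.1 model (R 4.3.3) held 8 group means with 16 residual degrees of freedom and no covariate, and p-values were adjusted by Benjamini-Hochberg over 19937 genes within each comparison. The script was tested on simulated data. The members and lists were chosen with earlier results of these data known. Genes outside the members were named by smallest p (up to 3 called genes per list and comparison), or by highest r (3 per member with group means spanning at least 1). The arrays' number limits the precision, and each array holds a pool of mice, so p-values measure the spread between pools. Alternatives were quantile normalization, a filter on dim genes, averaged probe sets, fits of fewer groups, a replicate block, array weights, single gates and each array left out. Scan dates were not used.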

Additional observations from a re-analysis of the deposited data

Results flagged for a closer look

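The mutant effect on Nrg1 differed between the basal fractions, by 2.84 on the log2 scale, GFP-positive minus GFP-negative, in a test of that difference itself. The mutant effect on Pik3r3, an adaptor subunit of phosphoinositide 3-kinase, differed in the same test by 2.63. The test compares fractions gated on GFP, which marks Lgr5 alone in control mice and also the transgene in mutant mice. The part of this gate in the Nrg1 and Pik3r3 differences was not tested.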

How the results depend on the processing

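Of the values of single members recomputed under the alternatives, 2113 kept their side of the threshold, 28 lost a call, 8 gained one and 1 reversed. A reversal was counted only where either fit made a call, so the 2113 include uncalled values that changed sign. For instance, the mutant effect on Hbegf in basal GFP-positive cells was -0.24, and 1.26 with control basal GFP-negative cells as the reference. Of the named pathway genes, all called as reported, 673 values kept their direction and their call and 87 lost the call. The reversed value was Egfr in mutant luminal against basal cells, 0.10 with luminal Sca1-negative cells alone. That gate alone, chosen after seeing the data, left 3 of 10 members called in control and 3 in mutant mice. Over all settings the share of all genes called between the lineages ran from 11.3% to 27.2% in control and from 10.2% to 22.8% in mutant mice. As such shares moved with the setting, a change in a count below is not a trait of the members alone. With just the arrays of a comparison in the fit, which has fewer residual degrees of freedom, the members called were 1 for the mutant effect in basal GFP-positive cells, 0 in luminal Sca1-negative cells, 1 between the GFP fractions of mutant basal cells, 1 between the mutant Sca1 gates and 0 for the difference between the basal effects. Array weights gave 1 in basal GFP-positive cells, 1 in luminal Sca1-positive cells, where Egfr passed (adjusted p = 0.0242), and 1 between the GFP fractions of mutant basal cells. That last count was also 1 without the 3 control basal GFP-positive arrays. With each array left out in turn the counts ranged from 1 to 2 in basal GFP-positive cells, from 1 to 2 between the mutant GFP fractions, from 0 to 1 between the control GFP fractions, from 0 to 2 for the difference between the basal effects and from 0 to 1 for that between luminal and basal cells.

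Whether equal replicate numbers mark the same sorting is not given in the sources used here, and the main fit held no block for them. Between groups, deviations of same-numbered arrays correlated at -0.0823 to 0.185 (median 0.027, 84 pairs). Those of arrays with other numbers correlated at -0.139 to 0.116 (median -0.0167, 168 pairs). A correlation over 0.1 was found in 7.14% and 0.595% of these pairs, and 17 of 24 arrays correlated best with an array of their own number. With the replicate block 1 member, Egfr, passed in luminal Sca1-positive cells (1.14, adjusted p = 0.0434), and no other count of members moved. The share of all genes called in basal GFP-positive cells ran from 1.17% to 20.0% over the alternatives. For the mutant effect it ran from 0.171% to 1.33% in luminal Sca1-negative and from 0.0401% to 1.21% in luminal Sca1-positive cells. Between the GFP fractions of mutant basal cells the range was 0.958% to 4.09%, and between the mutant Sca1 gates 1.6% to 5.73%. For the difference between the basal effects it was 0.266% to 2.95%, and for that between luminal and basal cells 0.186% to 2.66%. The 3 arrays per group, 250 cells per array and signals near background for Erbb4, Egf, Ereg and Btc limit the precision.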

Other observations

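Epgn, epigen, a further ligand of Egfr that lies beside Ereg, Areg and Btc in the mouse genome, was singled out after its values were seen. It stood at 7.43, 9.13 and 8.23 on the control and at 7.41, 9.19 and 8.46 on the mutant luminal Sca1-positive arrays, above all arrays of the luminal Sca1-negative gate of the same genotype. Control basal GFP-positive replicate 2 had 8.85, while the other 2 arrays of that group had 4.62 and 4.61. By limma the luminal excess was 1.83 ± 0.64 in control (adjusted p = 0.0523) and 1.80 ± 0.64 in mutant mice (adjusted p = 0.0676), and neither passed. The Sca1 difference was 2.05 ± 0.90 and 2.38 ± 0.90 (adjusted p = 0.282 and 0.221). Sca1-positive cells are those in which Egfr was lowest.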
